A study of Drosophila melanogaster with 596 samples.

Results

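Crosses that carried founder A4 were set against crosses that carried founder A7 at a single position of the genome, the listed expression QTL peak of Galphaf (CG12232) at 16.68 Mb of chromosome arm 3L on Release 5 of the Drosophila melanogaster genome. The pA founder at this peak was read from the founder assignments that the study published, and it was A4 in 20 crosses and A7 in 9 crosses, together 29 of the 596 crosses in the series. Only part of the published table was used here, with 45 crosses and 1999 peaks, so the founders of the remaining crosses were not analysed here and a listed peak is one of those 1999. The other crosses among the 45 carried A3 (7 crosses), A2 (3 crosses) or an uncertain pA founder (6 crosses). The crosses were grouped by genotype alone, but the peak is listed because Galphaf was mapped to it in crosses that include these 29, so the values of Galphaf are not an independent test of that eQTL.

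The series measured gene expression in heads of adult females, 3-5 days old, from crosses between recombinant inbred lines (RILs) of the Drosophila Synthetic Population Resource. All crosses compared here had a mother from population pA1 and a father from population pB2, each a different pair of lines, and every sample was total RNA of a pool of heads hybridised to a NimbleGen array. Along each chromosome of a RIL, segments from several inbred founder lines alternate, and a female of a cross therefore has 1 founder haplotype from its mother and 1 from its father. The A4 crosses carried a pB haplotype of founder B2 (8 crosses), B7 (7), B4 (2), B1 (1), B6 (1) or an uncertain founder (1) at the same peak, and the A7 crosses carried B2 (4), B7 (4) or B6 (1). Each cross has 1 set of values, so the crosses are the replicates of a founder haplotype, and they differ in the founders carried elsewhere in the genome. Away from 3L, a pair of crosses had the same pA founder at a median of 37.02% of the listed peaks among A4 crosses, 33.5% among A7 crosses and 36.01% between an A4 and an A7 cross.

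The values are scores. The authors set each transcript to normal quantiles over all crosses after removing subpopulation and principal components, so that 0 is the middle of the 596 crosses, a difference of 1 is about 1 SD among crosses, and the extremes are -3.15 and 3.15. Neither expression levels nor fold changes can be read from them. For that reason the defining markers of head tissue could be checked only for being measured and not for their level: 21 of the 29 listed markers of neurons, photoreceptors, glia, head fat body, muscle and haemocytes were measured, and 0 of 9 markers of the ovary.

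An expression QTL is a stretch of the genome at which inherited differences track the abundance of a transcript. It acts in cis where the variant lies at or near the gene it affects, for example in a promoter or enhancer of the same chromosome, and in trans where the product of another gene carries the effect. In a mapping population founder haplotypes are inherited in long blocks, so a founder contrast at a single position also contrasts every neighbouring gene within the block. Galphaf encodes an alpha subunit of heterotrimeric G proteins, the proteins that relay signals from receptors of the cell membrane.

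The block that separates both groups was traced first. At the listed peaks from Smn (16.53 Mb) through Galphaf, mus302 and CG13024 to Ogdh (16.93 Mb), all 20 A4 crosses carried A4 and all 9 A7 crosses carried A7. The 39 measured genes from Smn to Ogdh are called the core block. Towards the telomere the haplotypes were nearly intact as far as the Notum peak (15.88 Mb), where 19 of 20 A4 crosses still carried A4 and 7 of 9 A7 crosses still carried A7. The exceptions were A4 cross 5 and A7 crosses 3 and 5, all of which carried A3 there. At the CG12355 peak (15.49 Mb) 13 A4 crosses carried A4 and 0 A7 crosses carried A7. In place of A7, 5 of them carried A1 and 4 carried A3. Towards the centromere all 9 A7 crosses kept A7 to the CG14074 peak (18.82 Mb), whereas the number of A4 crosses with A4 fell to 19 at CG12229 (17.45 Mb), 17 at Wdr92 (17.87 Mb) and geko (18.12 Mb), 13 at Sgf11 (18.58 Mb) and 10 at CG14074. Where A4 ended on this side, A7 most often took its place: 9 A4 crosses carried A7 at the CG14074 peak. The stretch from Notum to geko is called the wide block, and its genes outside the core are called its flanks.

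Transcripts with an unadjusted p under 0.05 were more frequent in this block than over the rest of 3L or over any other arm, although bins of 3L just outside it had similar shares. Over all 11064 transcripts, 3 passed an adjusted p of 0.05 in a limma fit with the pB founder as a covariate (0.0271%), 2 of them higher in A4 crosses (0.0181%) and 1 lower (0.00904%), and all 3 lie in the flank towards the centromere. They are SecCl (CG7589), a member of the ligand-gated chloride channel family, and the neighbouring genes CG32188 and CG32189. At an unadjusted p under 0.05 there were 633 transcripts (5.72%), 351 higher in A4 crosses (3.17%) and the others lower (2.55%). In the wide block 44 transcripts (21.2%) passed that unadjusted threshold, 10 of 54 in the core (18.5%) and 34 in the flanks (22.1%). The share was 5.2% on the rest of 3L (98 of 1883 transcripts) and 5.47% on the other arms (491 of 8973), between 4.44% on the fourth chromosome and 6.53% on 2R. These shares are a description, since transcripts of a gene and of neighbouring genes are not independent.

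**Figure D1:**
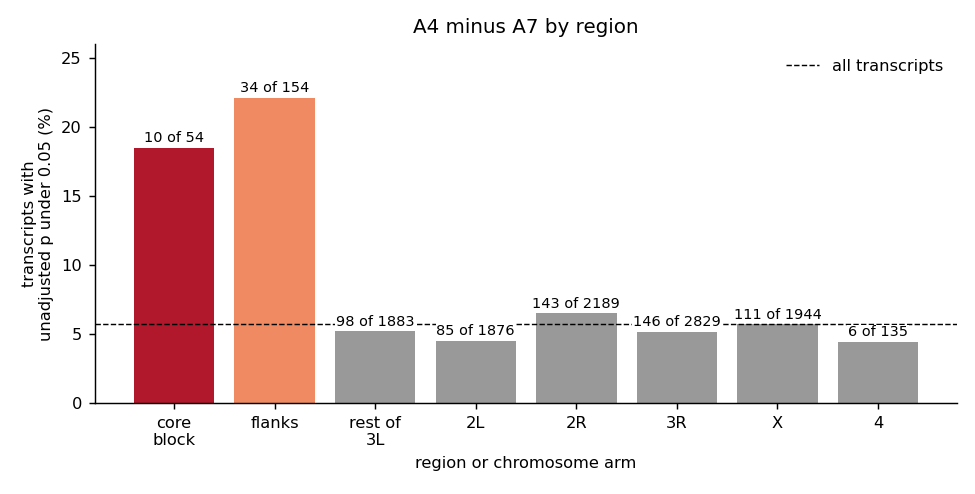
Share of transcripts with an unadjusted limma p under 0.05 in A4 minus A7 (percent, vertical axis) in the core block, its flanks, the rest of 3L and each other chromosome arm, with the number of transcripts above each bar and a dashed line for all transcripts (5.72%). The core block (18.5%) and the flanks (22.1%) stand above every other region, which lie between 4.44% and 6.53%.

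The direction was mixed. Of the 44 wide block transcripts below the unadjusted threshold, 25 were higher and 19 lower in A4 crosses, with 3 higher and 7 lower in the core and 22 higher and 12 lower in the flanks. The median absolute difference was 0.349 in the core and 0.317 in the flanks, beside 0.292 on the rest of 3L and 0.282 over all transcripts. In bins of 25 measured genes, the share below the unadjusted threshold was highest 50 to 74 genes beyond Galphaf towards the centromere, with 16 of 33 transcripts (48.5%) and a median absolute difference of 0.715. Other bins inside the block had lower shares, with 5 of 44 transcripts (11.4%) in the bin that starts at Galphaf and 2 of 25 in a bin on the telomere side. Outside the block the shares did not drop at once. On the telomere side the bin around the CG12355 peak, where no A7 cross carried A7, had 8 of 35 transcripts (22.9%) with a median absolute difference of 0.533, and the bin between it and the block had 9 of 49 (18.4%). On the centromere side the first bin outside the block had 5 of 32 (15.6%). The outermost bins of the stretch examined had 1 of 29 (3.45%) on the centromere side and 0 of 37 on the telomere side.

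**Figure D2:**
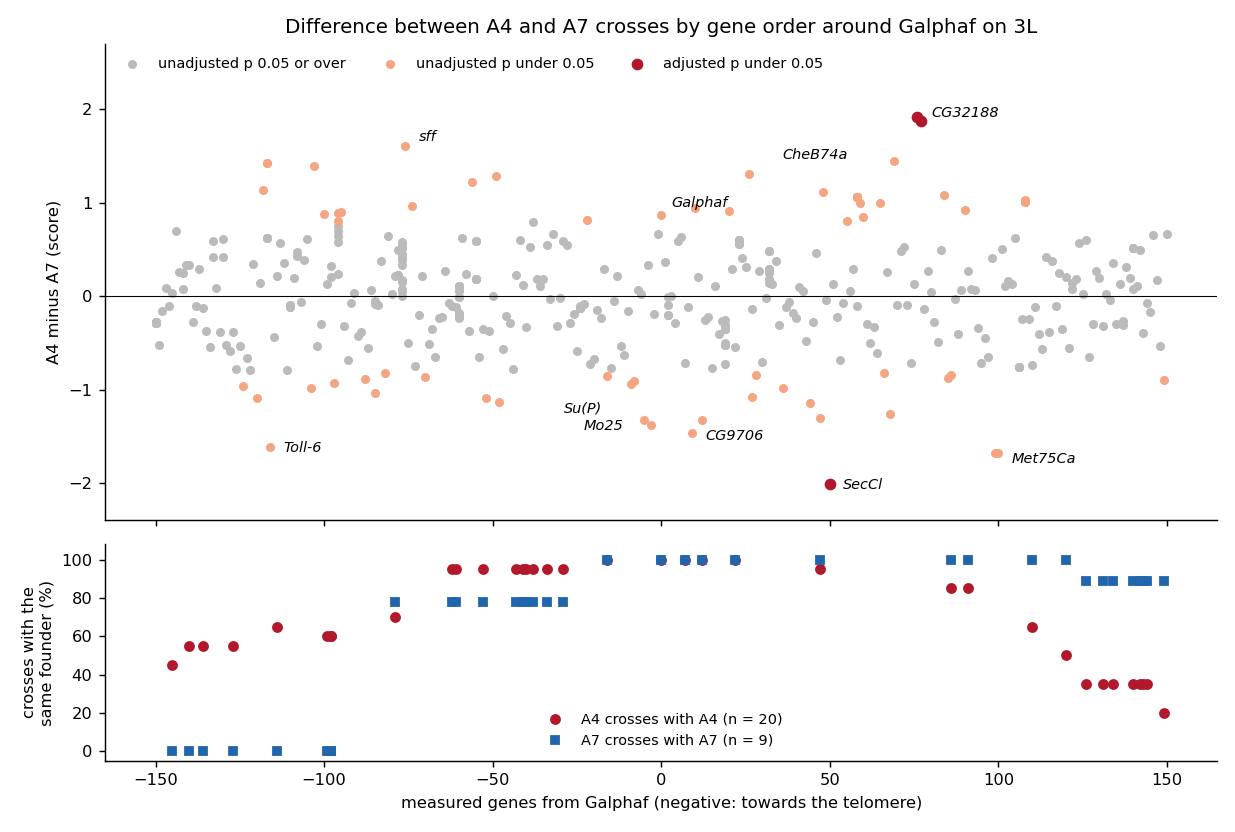
Upper panel: the difference A4 minus A7 in score units of each transcript within 150 measured genes of Galphaf, placed by gene order, with dark red points for an adjusted p under 0.05. Lower panel: the percent of the 20 A4 crosses (circles) and of the 9 A7 crosses (squares) that carried their own founder at each listed peak. The called transcripts, SecCl at 50 genes and CG32188 and CG32189 at 76 and 77 genes, lie where at least 17 of 20 A4 crosses and all A7 crosses still carried their founder.

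SecCl lies 50 measured genes from Galphaf and showed the largest absolute difference of the transcripts in the limma fit. In A4 crosses its score ran from -1.74 to 1.45 with a median of -0.156, and in A7 crosses from 1.301 to 2.64 with a median of 1.73. All 9 A7 crosses lay above the A4 median and 17 of 20 A4 crosses lay below every A7 cross, so the groups overlapped at 3 A4 crosses only. The A7 median lay above 95.6% of all 596 crosses, and the A4 median above 43.96%. The means were -0.0428 ± 1.02 in A4 crosses (SD, n = 20) and 1.79 ± 0.473 in A7 crosses (SD, n = 9). Adjusted for the pB founder, SecCl was lower in A4 crosses by -2.01 ± 0.402 (SE, limma adjusted p = 0.011). With each transcript's own variance in place of limma's pooled one, 3 transcripts passed (0.0271%, with 6.05% at an unadjusted p under 0.05), 1 higher in A4 crosses (0.00904%) and 2 lower (0.0181%), and SecCl was among them (adjusted p = 0.00219). The call was lost when A7 cross 1, 4 or 6 was left out (adjusted p = 0.0551, 0.062 and 0.0702), with differences of -1.93, -1.94 and -1.89. The A4 cross with the highest SecCl score, cross 16 with 1.45, is the A4 cross that carried A7 at the CG12229 peak, 3 genes from SecCl. However, A4 crosses 17 and 18 carried A4 there and had 1.39 and 1.37, also within the A7 range, and A2 cross 3 carried A7 there and had -0.196.

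CG32188 and CG32189, 76 and 77 genes from Galphaf, were higher in A4 crosses. CG32188 ran from -1.58 to 2.64 in A4 crosses with a median of 0.264, and from -3.15 to -1.02 in A7 crosses with a median of -1.36. A total of 19 of 20 A4 crosses lay above every A7 cross. The median of the A7 crosses lay above 8.72% of all crosses and that of the A4 crosses above 60.4%. Its difference was 1.92 ± 0.413 (SE, limma adjusted p = 0.0277), with means of 0.456 ± 1.15 in A4 crosses and -1.52 ± 0.641 in A7 crosses. CG32189 differed by 1.88 ± 0.412 (adjusted p = 0.029). The scores of both genes correlated with r = 0.990 over the 596 crosses and were equal in 36 of them, so they cannot be counted as separate findings, and probes shared between such close neighbours were not examined here. Neither call held with each transcript's own variance (adjusted p = 0.106 for both), and both were lost without any of 12 single crosses. A7 cross 3, which had the lowest score of both (-3.15), moved CG32188 most, to 1.73 with an adjusted p of 0.267.

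**Figure D3:**
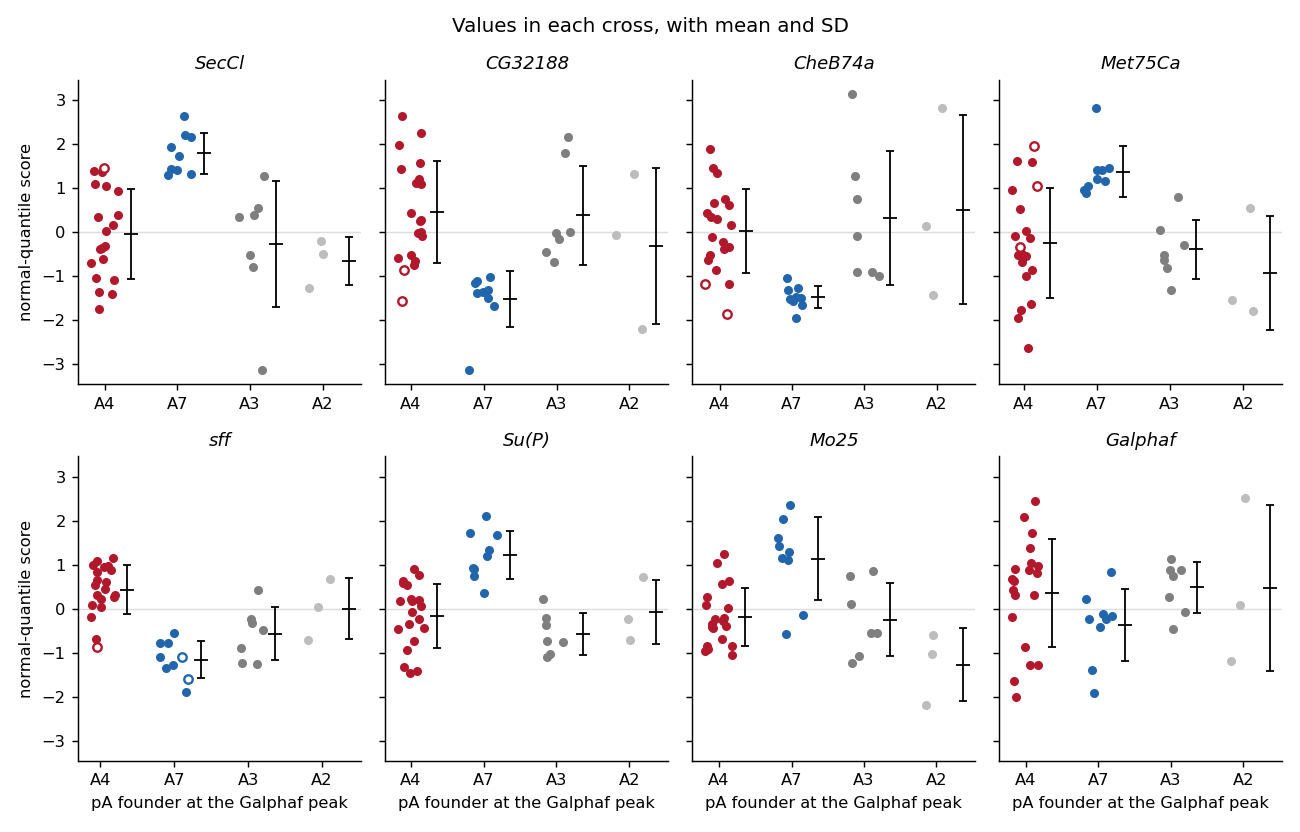
Normal-quantile score (vertical axis) of each cross for 8 transcripts, by the pA founder at the Galphaf peak (A4 red, A7 blue, A3 dark grey, A2 light grey), with the group mean and SD as a bar at the right of each group. Open circles are A4 and A7 crosses with an assigned founder other than their own at the listed peak nearest the gene. For CG32188 and CheB74a the lowest open A4 circles (-1.58 and -1.87) lie among the A7 crosses.

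No transcript of the 11064 separated the groups completely by the founder at the Galphaf peak (0%). Crosses whose haplotype had changed between Galphaf and the gene were therefore read again by the founder at the listed peak nearest to each gene, over all 45 crosses with assignments. This reading was chosen after the values were seen and carries no test. At the Wdr92 peak 21 crosses carried A4 and 12 carried A7. Read in this way, CG32188 ran from -0.850 to 2.64 in the A4 crosses and from -3.15 to -0.862 in the A7 crosses, without overlap. CG32189 ran from -0.668 to 2.36 in the A4 crosses and from -3.15 to -0.887 in the A7 crosses, also without overlap. These were 2 of the 11064 transcripts (0.0181%) without overlap by the founder at that peak. CheB74a, a member of the CheB family of small chemosensory proteins, ran from -1.18 to 1.90 in those A4 crosses and from -1.95 to -1.04 in those A7 crosses. For SecCl this reading did not sharpen the contrast: by the founder at the CG12229 peak it ran from -1.74 to 1.39 in 23 A4 crosses and from -0.196 to 2.64 in 11 A7 crosses, with means of -0.0760 ± 0.936 and 1.58 ± 0.731 (SD) and a difference of -1.65.

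A4 crosses 5 and 16 carried A7 at the Wdr92 and geko peaks, and their scores lay near those of the A7 crosses for the genes there. CG32188 had -0.862 in A4 cross 5 and -1.58 in A4 cross 16, against a highest A7 score of -1.02. CheB74a had -1.87 and -1.18 in these crosses, both within the range of the A7 crosses, as was A4 cross 1 (-1.18), which carried A4 at the Wdr92 peak. Met75Ca, which lies 100 genes from Galphaf, had 1.95 and 1.05 in them, against an A7 median of 1.19 and an A4 median of -0.417. For this gene A4 crosses 10, 12 and 17, which carried A4 at the geko peak, had 0.956, 1.61 and 1.58, also above the lowest A7 score of 0.893, and so did an uncertain cross with A4 at that peak (1.80). Crosses 5 and 16 are 2 crosses only, and they were described after the pattern was seen.

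**Figure D4:**
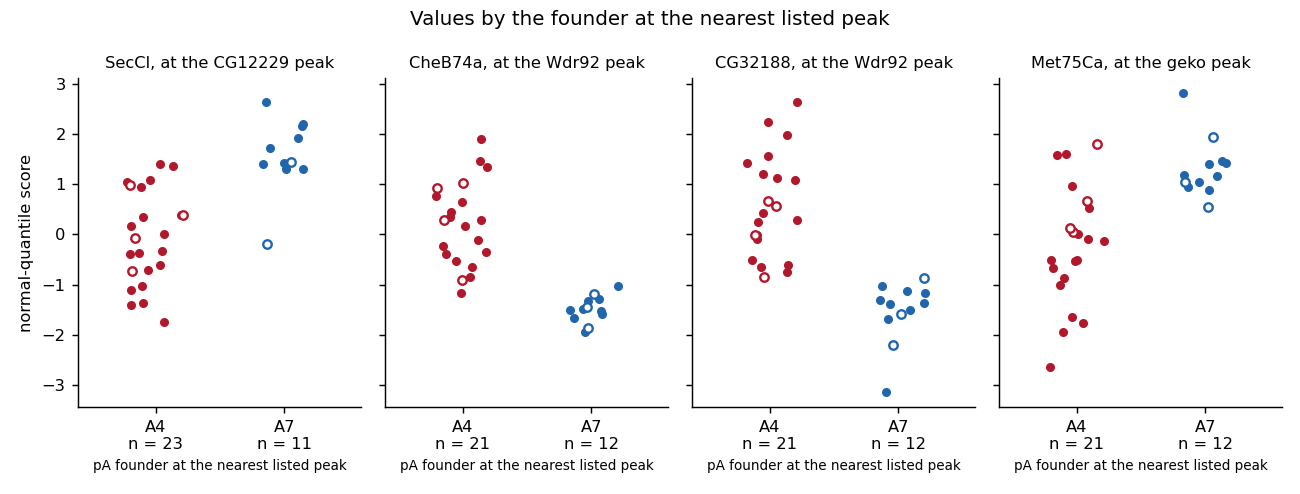
Scores of SecCl, CheB74a, CG32188 and Met75Ca (vertical axis) in all crosses with A4 (left, red) or A7 (right, blue) at the listed peak nearest each gene, among the 45 crosses with assignments. Open circles are crosses that carried another or an uncertain founder at the Galphaf peak. CG32188 did not overlap between 21 A4 and 12 A7 crosses, whereas SecCl, CheB74a and Met75Ca did.

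Within the core block, 10 of 54 transcripts passed an unadjusted p of 0.05 and 0 passed the adjusted threshold. Galphaf itself ran from -2.01 to 2.44 in A4 crosses with a median of 0.650, and from -1.92 to 0.821 in A7 crosses with a median of -0.234. The A4 scores spanned the whole A7 range, although 8 of 9 A7 crosses lay below the A4 median. The A4 median lay above 74.3% of all crosses and the A7 median above 40.8%. Its means were 0.361 ± 1.23 in A4 crosses and -0.384 ± 0.818 in A7 crosses. Adjusted for the pB founder, the difference was 0.874 ± 0.409 (SE, limma unadjusted p = 0.0334, adjusted p over all transcripts = 0.817). A two-sided exact permutation test of the difference of means (0.745, all 10015005 splits of the 29 crosses) gave p = 0.11. That test took no account of the pB founder. Neither test is independent of the mapping that listed this peak. Galphaf also varied with the pB founder: with B7 its mean was 1.35 ± 0.654 in 7 A4 crosses and 0.0978 ± 0.549 in 4 A7 crosses, and with B2 it was -0.243 ± 0.794 in 8 A4 crosses and -0.613 ± 0.875 in 4 A7 crosses. The difference A4 minus A7 was 1.25 with B7 and 0.37 with B2 in the fit, and the test of the difference between these did not pass (limma adjusted p = 0.997).

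Next to Galphaf, Mo25 and Su(P) had the larger differences, both lower in A4 crosses and neither past the adjusted threshold in the limma fit. Mo25, the scaffold protein that binds the kinase Lkb1, ran from -1.05 to 1.24 in A4 crosses with a median of -0.320, and from -0.587 to 2.36 in A7 crosses with a median of 1.29. Its difference was -1.38 ± 0.403 (adjusted p = 0.388). Su(P) (CG4086), 5 genes from Galphaf, ran from -1.46 to 0.893 in A4 crosses with a median of -0.00831, and from 0.347 to 2.11 in A7 crosses with a median of 1.19. All 9 A7 crosses lay above the A4 median and 15 of 20 A4 crosses lay below every A7 cross. The difference of Su(P) was -1.33 ± 0.398 (limma adjusted p = 0.445). Its spread within groups was small, with an SE of 0.22 from its own variance, and with that variance it passed (adjusted p = 0.01).

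On the other side of Galphaf, CG9706 (9 genes away) ran from -2.81 to 1.98 in A4 crosses and from -0.0663 to 2.24 in A7 crosses, a difference of -1.46 ± 0.411 (limma adjusted p = 0.307). CG13024 (12 genes away), which has a listed peak of its own at 16.84 Mb, ran from -1.85 to 1.19 in A4 crosses and from -0.905 to 2.81 in A7 crosses, a difference of -1.32 ± 0.408 (adjusted p = 0.579). The remaining core genes below the unadjusted threshold were eIF3e, a subunit of a translation initiation factor, and CG32170, with differences of 0.940 and 0.910, and Smn, Apl and Arts with differences of -0.850, -0.942 and -0.904. Apl and Arts are neighbours with similar means (-0.565 and -0.551 in A4 crosses, 0.408 and 0.371 in A7 crosses). They may not be separate findings, which was not tested.

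A short list of block genes was named for their known roles, and none of them passed the adjusted threshold. Other block genes with known roles differed more, among them Mo25 above and Pgm1 and Nedd4 in the flanks. The sex determination gene tra had -0.162 ± 0.408, the tyrosine kinase gene Abl -0.189 ± 0.410 and Dab, an adaptor that acts with Abl in axons, 0.00513 ± 0.403. Scores of Abl ran from -1.57 to 2.01 in A4 crosses and from -1.52 to 1.74 in A7 crosses, so the groups covered the same range. Smn, whose product assembles spliceosomal snRNPs, had -0.850 ± 0.409 (limma adjusted p = 0.837). Ogdh (Nc73EF), a subunit of the 2-oxoglutarate dehydrogenase of the TCA cycle, had -0.547 ± 0.409. Also in the core, the cell adhesion gene Nrt had 0.629 and the opsin gene Rh4 0.108. In the flanks, the eye pigment transporter gene st had -0.147 ± 0.404, the EGF receptor antagonist gene aos -0.721 ± 0.408 and the caspase inhibitor gene Diap1 (th) -0.113 ± 0.405. The chromatin remodeller gene brm, 8 genes beyond Notum and so just outside the wide block, had -0.870 ± 0.406 (adjusted p = 0.817). An SE near 0.41 means that differences under about 0.8 could not be told from 0 here even before adjustment.

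Other flank genes below the unadjusted threshold but not the adjusted one are given by position. On the telomere side these were IntS9, a subunit of the Integrator complex (1.22), l(3)72Dn (1.29), CG33158 (0.820), Pgm1, phosphoglucomutase (-1.08), and Tmx3, a thioredoxin-related membrane protein (-1.14). Between Ogdh and SecCl they were beg (1.31), CG18265 (1.11), CG12229 (-1.31), Coq4 of coenzyme Q synthesis (-1.15), scaf6 (-1.08), the cadherin gene Cad74A (-0.983) and the PAPS transporter gene Papst2 (-0.847). Beyond SecCl they included the ubiquitin ligase gene Nedd4 (1.06), the protease gene Jon74E (1.001), Krn (0.996), which encodes an EGF receptor ligand, CycT (0.846), Ccn (-1.26) and Tsp74F, a tetraspanin (-0.878). CheB74a, at 69 genes, ran from -1.87 to 1.90 in A4 crosses with a median of 0.0272 and from -1.95 to -1.04 in A7 crosses with a median of -1.50. Its difference was 1.44 ± 0.405 (limma adjusted p = 0.307), with 17 of 20 A4 crosses above every A7 cross.

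Just outside the wide block, several genes of 3L came next in the ranking by p. Among them was sff (CG6114), which encodes a SAD-type kinase and lies 76 genes from Galphaf on the telomere side. It ran from -0.868 to 1.15 in A4 crosses with a median of 0.492, and from -1.90 to -0.558 in A7 crosses with a median of -1.11. Of the 20 A4 crosses 18 lay above every A7 cross. The difference was 1.61 ± 0.398 with limma's pooled variance (adjusted p = 0.123) and 1.61 ± 0.217 with its own variance (adjusted p = 0.00101). At the nearest listed peak, CG15715 (15.85 Mb), A4 cross 5 and A7 crosses 3 and 5 carried A3. Their sff scores were -0.868 in A4 cross 5, the lowest of the A4 crosses, and -1.61 and -1.11 in the A7 crosses, within the range of the other A7 crosses. The 7 crosses with A3 at the Galphaf peak had a median sff score of -0.491, and among them A3 crosses 4 and 5 carried A4 at the CG15715 peak.

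Met75Ca and Met75Cb, 100 and 99 genes from Galphaf, had identical values in all 596 crosses and count as 1 measurement. Their score ran from -2.64 to 1.95 in A4 crosses with a median of -0.417, and from 0.893 to 2.81 in A7 crosses with a median of 1.19. The difference was -1.68 ± 0.415 (limma adjusted p = 0.123), and it passed only without A4 cross 5 (adjusted p = 0.0438). Read by the founder at the geko peak, the mean was -0.237 ± 1.19 in 21 A4 crosses and 1.32 ± 0.584 in 12 A7 crosses.

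On the telomere side beyond 100 genes, Toll-6 (a receptor of the Toll family), CG7255 and SCCRO (which acts in cullin neddylation) also ranked among the first 20 genes. None of the A7 crosses carried A7 at their nearest listed peaks. Toll-6 ran from -1.95 to 1.49 in A4 crosses and from 0.450 to 3.15 in A7 crosses, a difference of -1.62 ± 0.407 (adjusted p = 0.14). CG7255 differed by 1.43 ± 0.402 and SCCRO by 1.40 ± 0.401 (adjusted p = 0.307 and 0.355). At the CG12355 peak, nearest to Toll-6 and CG7255, the A7 crosses carried A1 (5) or A3 (4). Of the A4 crosses 13 carried A4, 6 carried A3 and cross 2 carried A5. For these genes the contrast is therefore A4, A3 and A5 against A1 and A3, with A3 on both sides.

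Outside 3L none of the 8973 transcripts passed the adjusted threshold in the limma fit, beside 491 at an unadjusted p under 0.05, or with each transcript's own variance. The 6 genes of other arms among the first 20 by p were p53, BOD1, Hap40, CG5446, CG42327 and Obp56f, with absolute differences from 1.42 to 1.52. The transcription factor gene p53 (3R) ran from -1.44 to 2.11 in A4 crosses with a median of 0.00207, and from -2.24 to 0.209 in A7 crosses with a median of -1.43, a difference of 1.52 ± 0.405 (adjusted p = 0.261). BOD1 (3R) ran from -1.63 to 1.58 in A4 crosses and from 0.597 to 2.30 in A7 crosses, a difference of -1.49 ± 0.402 (adjusted p = 0.273). Hap40 (X) differed by -1.47 ± 0.408 (adjusted p = 0.307), from -1.55 to 1.61 in A4 crosses and from -0.413 to 2.64 in A7 crosses. Obp56f, an odorant-binding protein gene on 2R, differed by -1.42 ± 0.417 (adjusted p = 0.388).

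Founders near some of these genes were not balanced between the groups. At the Arp6 peak, the nearest listed to Hap40, 9 of 19 assigned A4 crosses and 7 of 8 assigned A7 crosses carried A7. At the CG14712 peak near CG42327, 8 of 19 A4 crosses and 7 of 9 A7 crosses carried A4. At the mRpS22 peak near BOD1, 8 of 20 A4 crosses and 6 of 9 A7 crosses carried A4. At the Obp56g peak near Obp56f, the commonest founders differed between the groups. They were A4 and A5 in the A4 crosses (7 of 19 assigned for each) and A6 in the A7 crosses (4 of 9). Near p53 and CG5446 the shares of the commonest founder were close. At the CG10175 peak, 18 genes from p53, 8 of 14 assigned A4 crosses and 4 of 7 assigned A7 crosses carried A6. At the pdm2 peak near CG5446, 13 of 20 A4 crosses and 5 of 8 assigned A7 crosses carried A4. Over whole arms, the largest gap in the share of any founder between the groups was 55 percentage points on 3R (A3 in 11 A4 crosses and 0 A7 crosses at the CG14694 peak), 51.7 on 2L, 45.6 on 2R and 41.7 on X, beside 100 at the Galphaf peak. The part of these imbalances in the differences was not tested.

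Values of A3 and A2, the other pA founders assigned at the Galphaf peak among the 45 crosses, were set beside those of A4 and A7. In the fit with all assigned founders, no transcript passed the adjusted threshold for A4 minus A3 (0%, 654 at an unadjusted p under 0.05, 5.91%) or for A3 minus A7 (0%, 464 at an unadjusted p, 4.19%), with 7 A3 crosses. For SecCl, the A3 crosses ran from -3.15 to 1.26 with a median of 0.342, and the differences were 0.183 for A4 minus A3 and -2.12 for A3 minus A7 (adjusted p = 0.983 and 0.426). For CG32188 they were -0.0345 and 1.99 (adjusted p = 0.997 and 0.609), and for CheB74a -0.573 and 1.99 (adjusted p = 0.94 and 0.609). For sff the A3 crosses lay between, with 0.989 for A4 minus A3 and 0.634 for A3 minus A7 (adjusted p = 0.798 and 0.979). However, these groups are set by the founder at the Galphaf peak. A3 crosses 4 and 5 carried A4 at the CG15715 peak, nearest to sff, and had the highest sff scores of the 7 (0.418 and -0.243). These contrasts share crosses with A4 minus A7. The 3 A2 crosses had SecCl scores from -1.27 to -0.196 and CG32188 scores from -2.20 to 1.31, and were not tested. The lowest of these CG32188 scores was that of A2 cross 3, which carried A7 at the Wdr92 peak.

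The difference between A4 and A7 was also set out by the pB founder. For SecCl it was -2.64 with B2 and -1.97 with B7, for CG32188 1.71 and 2.14, for sff 1.31 and 1.71, for Mo25 -1.86 and -1.50 and for Su(P) -1.03 and -1.58. SecCl scores with B2 had a mean of -0.637 ± 0.780 in 8 A4 crosses and 1.999 ± 0.218 in 4 A7 crosses, and with B7 -0.301 ± 0.762 in 7 A4 crosses and 1.66 ± 0.653 in 4 A7 crosses. The limma test of the difference between pB founders passed for no transcript (0%), with 491 at an unadjusted p under 0.05 (4.44%). With 4 A7 crosses for each pB founder, only large differences could have been found.

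**Figure D5:**
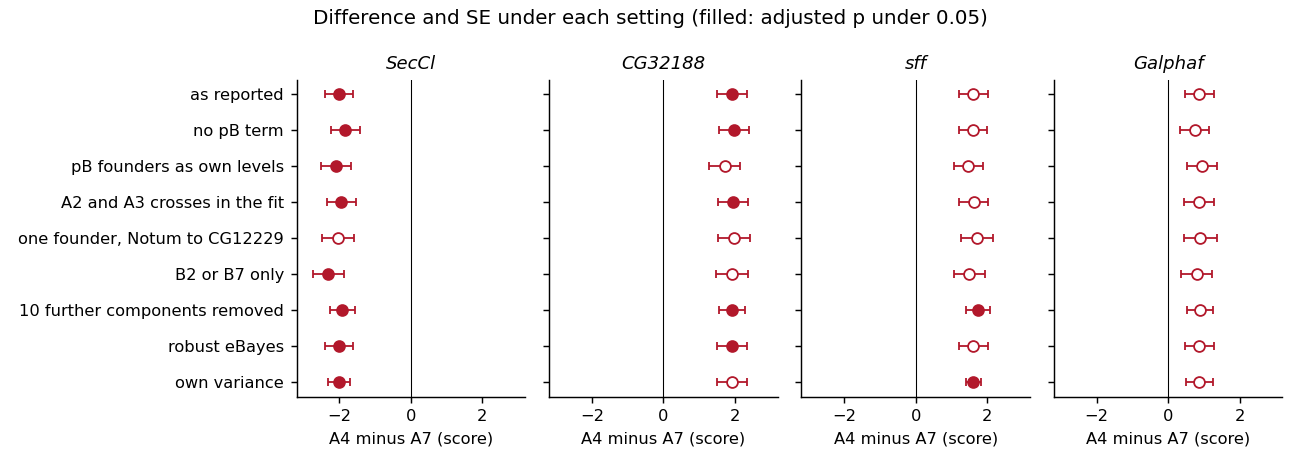
Difference A4 minus A7 in score units with its SE (horizontal axis) for SecCl, CG32188, sff and Galphaf under 9 settings (rows), with filled circles for an adjusted p under 0.05. Each estimate kept its sign, and SecCl was past the threshold in 8 of these 9 settings, CG32188 in 5, sff in 2 and Galphaf in 0.

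Pathway and marker lists showed no transcript past the adjusted threshold. Read against 5.72% over all transcripts, the share at an unadjusted p under 0.05 was highest for apoptosis genes, with 5 of 19 transcripts (26.3%), all higher in A4 crosses: 3 of the 4 transcripts of p53, 1 of Dark, the apoptosome gene, and Diap2. The p53 transcript with the smallest p had the same values as another transcript, so the 5 may not be separate measurements. The median difference of the apoptosis list was 0.0563, beside -0.00934 over all transcripts. In the TCA cycle list 4 of 33 transcripts (12.1%) were below that threshold, all of them transcripts of Pdha, a subunit of pyruvate dehydrogenase on X, and lower in A4 crosses. Of the Abl signalling list 1 of 10 was (Abi, -1.06), of the Brahma complex 1 of 12 (brm), of SMN and snRNP assembly 1 of 11 (Smn), of the EGF receptor list 1 of 16 (Krn, 0.996) and of sex determination 1 of 58 (her, 1.07). Phototransduction genes had 1 of 26, rdgC with -0.923, and a median difference of -0.518. The clock list had 0 of 36 with a median of -0.453, the eye pigment list 0 of 17 with -0.203, heat shock genes 0 of 10 and antimicrobial peptides 0 of 2.

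Among cell type markers no transcript passed the adjusted threshold. Among neuron markers 4 of 16 transcripts (25%) were lower in A4 crosses at an unadjusted p under 0.05, all from the synaptic vesicle gene Syt1 (differences from -0.960 to -0.861), while the list's median was 0.624, with 9 of its transcripts from brp. Among muscle markers 1 of 18 (5.56%) was, fln (-1.03). Photoreceptor, glia, head fat body and haemocyte markers had 0 of 3, 0 of 2, 0 of 3 and 0 of 6. Medians over all transcripts ran from -0.137 to 0.083 in A4 crosses and from -0.146 to 0.125 in A7 crosses.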

How the data were processed

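NimbleGen arrays of female heads were background corrected, normalized and summarised by the authors with the oligo package and RMA. The authors had dropped probes with multiple founder SNPs, and probes with a single SNP where its effect on the measurement was detected. Other probes with a single SNP were kept, and their part in the differences was not tested here. The authors deposited scores: residuals of each transcript from subpopulation and the first 10 principal components, set to normal quantiles. They were used unchanged for 11064 transcripts of 7422 genes, all matched to a Release 6 gene table that gave symbols and gene order. Positions are Release 5. The pA founder came from the part of the published assignments used here, 45 crosses at 1999 peaks, through the maternal line in the labels. The array that held each cross was not used here.

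A4 minus A7 was fitted with limma 3.58.1 (R 4.3.3) on the 29 crosses, with pB founder in 3 classes (B2, B7, other) and Benjamini-Hochberg adjustment over all transcripts. The residual degrees of freedom were 25 and the prior ones 253, so the SE was 0.398 to 0.440 for every transcript. The limma p-values therefore rest mostly on a spread between crosses pooled over all transcripts, and little on that of the transcript itself. A fit with each transcript's own variance was added after the values were seen. Galphaf had an exact permutation test. Scripts were tested on simulated data. The number of crosses limits the precision.

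Named genes are Galphaf, the called genes, the next genes by p to a total of 20, and st, tra, aos, Abl, Dab, Smn, Ogdh, Diap1 and brm. Other genes were named after their values were seen. Members and lists were chosen with earlier results of these data known. Python 3.11.15, numpy 2.4.6, pandas 2.3.3 and matplotlib 3.10.9 made the summaries and plots.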

Additional observations from a re-analysis of the deposited data

Results flagged for a closer look

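In groups of 4 to 10 crosses, the highest and lowest cross were set against the nearest other cross. Among 60 such groups of named transcripts (A7 and A3 crosses, 30 transcripts each) 8 stood out. Chance gives about 1 in 20 for independent groups that were not picked by their values. Many of these transcripts were picked by p in the same A7 crosses and some nearly share their scores, so the 8 cannot be read against that rate. A7 cross 3 had -3.15 for both CG32188 and CG32189, with the next crosses at -1.69 and -1.67. A7 cross 5 had 2.81 for Met75Ca and Met75Cb, which have identical values, with the next at 1.46, and 1.98 for CG42327, with the next at 1.04. A7 cross 2 had 3.15 for Toll-6, with the next at 1.69. Among A3 crosses, cross 5 had -3.15 for Toll-6, with the next at -0.238, and cross 1 had 1.24 for Abl, with the next at -0.342.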

How the results depend on the processing

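The differences of Galphaf and of the 20 genes named by p kept their sign under all alternatives in score units, so the fit on ranks is not among these. The 3 calls over all transcripts, all in the founder block, became 1 (SecCl), over all transcripts and in the block, with each pB founder of at least 2 crosses as a level of its own and with only B2 or B7 crosses. They became 0 with only the 18 A4 and 7 A7 crosses that carried their founder from the Notum to the CG12229 peak, 0 on ranks and 0 at an adjusted p under 0.01. After 10 further components were removed there were 7 over all transcripts, the same 3 with sff, Toll-6 and 2 transcripts of CG7255. These 7 are not all separate findings, because CG32188 and CG32189 nearly share their scores. The CG7255 transcript with the smallest p also had the same values as another transcript. Without the pB term, with A2 and A3 crosses in the fit, with identical transcripts entered once (9008 transcripts) and with robust eBayes the same 3 were called. With each transcript's own variance SecCl, sff and Su(P) were called. Leaving out 1 cross at a time gave 0 to 5 calls over all transcripts and 0 to 3 in the block: 0 without A7 cross 1, 4 or 6, 1 without A7 cross 3, 7 or 8 or A4 cross 10, 11, 12, 13, 14 or 18, and 5 over all transcripts without A4 cross 5. Galphaf ran from 0.747 to 0.983. The number of wide block transcripts at an unadjusted p under 0.05 stayed between 35 and 55 under the other alternatives and between 36 and 44 when single crosses were left out. The cause of these changes was not tested, beyond the smaller number of crosses where crosses are left out. No paired analysis was possible because replicate numbers only name the crosses. The 9 A7 crosses limit what could be found, and the scores hold neither expression levels nor the signal of a probe above its background.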
